A study of Mus musculus with 18 samples.

Results

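Cytosolic ribosomal proteins are the protein components of the ribosome that translates nuclear-encoded mRNA. The 83 genes described here are Rpsa and the mouse genes with the standard Rps, Rpl or Rplp symbols whose mean over all 18 libraries was at least 10 normalized counts, out of 48440 genes in the deposited table. Before that mean was required, 86 genes had matched by symbol, and a pair of further genes of this naming was left aside. Small-subunit symbols made up 36 of the 83 and large-subunit symbols 47. By GENCODE M21 (build GRCm38), 78 are protein coding (32 small-subunit and 46 large-subunit, 4 of them X-linked) and 5 are processed pseudogenes (Rps12l1, Rpl6l, Rps4l, Rps3a2 and Rps3a3). The genes just under the required mean were Rpl10l at 0.137, Rpl39l at 1.01 and Rpl3l at 9.75, paralogs best known from testis or muscle. Just above it were Rps12l1 at 22.3, Rpl6l at 83.3 and Rps4l at 147. Rps12l1 reached that mean only through the low performers of PFC and MDTH, being listed at 0 in the other 12 libraries. Its calls in the comparisons below follow from how it was admitted and are no result. Counts over all members below include it wherever it passed or did not overlap, unless they are said to leave it out.

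The libraries are polyA-selected, stranded RNA sequencing of brain tissue from mice of the Diversity Outbred stock, bred from several founder strains so that no pair of animals has the same genome. Mice classed as high performers and low performers in short-term memory gave 3 libraries each from prefrontal cortex (PFC), from the tissue named MDTH and from the tissue named HPF. The sources used here give no test that defined performance, no age or sex, no treatment, and no statement that the libraries of a group came from separate animals. P-values therefore measure the spread between these libraries, and no engineered allele or agent is named for any group.

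A ribosome joins a small and a large subunit, each a scaffold of ribosomal RNA clad in proteins that are mostly present in a single copy. Cells make these proteins in matched amounts, and their mRNAs carry a pyrimidine tract at the first base that lets growth signals control their translation together. In neurons, ribosomal protein mRNAs are also found in dendrites and axons. Most of the genes have left processed copies elsewhere in the genome, which matters for counting reads.

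Several features of the libraries touch the results. Thalamic marker genes summed to between 100545 and 220877 normalized counts in MDTH and reached at most 15226 elsewhere, while hippocampal markers were highest in HPF. Choroid plexus markers summed to between 75697 and 161725 in 4 libraries (PFC high replicate 1, PFC low replicates 2 and 3, HPF high replicate 2) and to at most 11056 in the other 14. Library names are written in one style for high and another for low performers of PFC and MDTH, so performance and library preparation cannot be told apart there. HPF libraries differed from the others in naming and were estimated at 76668860 to 88706089 reads against 41098043 to 48848640 in PFC and 42874301 to 47535071 in MDTH, so tissue and preparation cannot be told apart either. The library names carry a number; 44, 88 and 165 occurred among the high performers of every tissue, and the labels do not say that a number is a mouse.

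Ribosomal protein mRNAs were abundant in every library, and the lowest value of a protein-coding member in any library was 161 normalized counts, for Rps27l. The levels per kilobase of the annotated principal transcript were highest for Rplp1, a protein of the stalk that recruits elongation factors, at 32925 normalized counts per kilobase as a mean of all 18 libraries. Next came Rps29 at 23382, Rps15 at 21200, Rpl41 at 17180 and Rpl23a at 16167. The median of the 78 protein-coding members was 7048 normalized counts per kilobase. The lowest protein-coding members per kilobase were Rps27l at 621, a paralog of Rps27 known as a p53 target, and Rpl7l1 at 573, a nucleolar paralog of Rpl7. The pseudogenes Rps4l, Rpl6l and Rps12l1 lay under them at 170, 95.7 and 55.9 per kilobase. Rps21, with a transcript of 394 bases, had 10417 per kilobase, whereas Rps20 had 1102, a figure that rests on an annotated transcript of 3706 bases.

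Between the highest and the lowest of the 18 libraries, 43 of the 78 protein-coding members varied less than 2-fold, 29 varied 2-fold to 3-fold and 6 varied at least 3-fold. The median ratio of highest to lowest was 1.94. The 6 widest were Rps15a at 6.23, Rps26 at 3.93, Rpl35a at 3.78, Rplp1 at 3.09, Rpl29 at 3.05 and Rps20 at 3.04. All members together took between 0.816% and 1.35% of the normalized counts of a library.

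**Figure D1:**
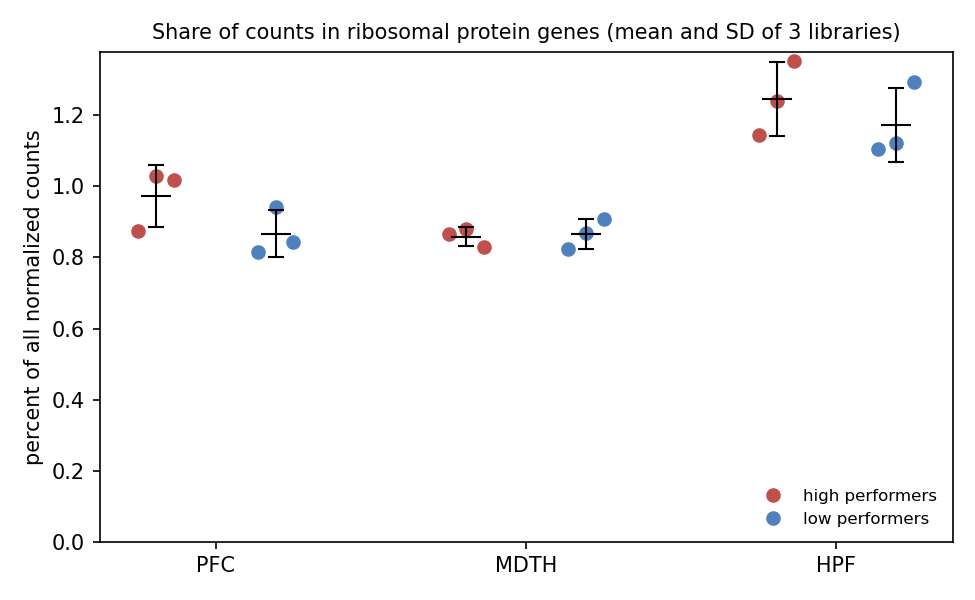
Share of all normalized counts (percent) that fell on the 83 ribosomal protein genes, by tissue, for high performers (red) and low performers (blue). Points are libraries and bars the mean and SD of 3 libraries. HPF libraries lie between 1.10% and 1.35%, above all PFC and MDTH libraries, and high and low performers overlap in each tissue.

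That share averaged 0.974% ± 0.087 in PFC high performers and 0.867% ± 0.066 in PFC low performers. It was 0.858% ± 0.026 in MDTH high performers against 0.866% ± 0.042 in MDTH low performers, and 1.25% ± 0.10 in HPF high performers against 1.17% ± 0.10 in HPF low performers (SD over 3 libraries throughout). High and low libraries overlapped in all 3 tissues, so the summed level did not separate the performance groups. In bulk tissue, fewer cells of a type and less RNA per cell cannot be told apart. The total was not tested, and the differences described next are among single members.

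In PFC, the high performers had more mRNA for Rps20, Rps21, Rpl39 and 9 other ribosomal proteins, and less Rps26. Each gene was tested with limma on log2(normalized count + 1) over the 6 PFC libraries, and a gene passed where its Benjamini-Hochberg adjusted p over all genes tested was under 0.05. Of the 83 members, 12 were higher and 2 lower, or 14.5% and 2.41% of them, the 2 being Rps26 and the pseudogene Rps12l1, without which 1 was lower, where 3.22% and 2.63% of all 17991 genes tested passed. The median log2 difference, high minus low, was 0.21 over the members and -0.01 over all genes. Groups that did not overlap made up 25 members higher and 10 lower, Rps12l1 included, where 17.2% and 13.8% of all genes did so. The calls rest on single libraries and on the mean-variance trend, without which 0 members were higher and 1 lower. Calls over all genes fell too, from 579 higher and 474 lower to 25 and 27 without the trend. No member passed as higher without high replicate 2, without high replicate 3 or without low replicate 3. Over all genes 6, 5 and 4 did, and 11, 2 and 5 passed as lower. Without low replicate 1, 1 member was higher, against 164 of all genes. In each of the 6 fits that left out a library 0 or 1 member passed as lower, Rps12l1 in 3 fits and Rps26 in 1.

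Rpl39 encodes a very short protein that lines the exit tunnel of the large subunit (ENSMUSG00000079641, GRCm38 chromosome X, 37082520 to 37085402, minus strand). It had 1655, 2231 and 2087 normalized counts in PFC high performers, against 851, 935 and 853 in low performers. Every high library lay far above every low one, and the log2 difference was 1.17 (SE 0.13, 95% interval 0.85 to 1.48, limma adjusted p = 0.0136).

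Rps20 encodes a protein of the head of the small subunit (ENSMUSG00000028234, chromosome 4, 3831334 to 3835665, minus strand). Its PFC values were 4194, 6230 and 5362 in high performers, against 2274, 2696 and 2147 in low performers. The groups did not overlap, with a log2 difference of 1.14 (SE 0.16, 95% interval 0.76 to 1.51, limma adjusted p = 0.0185).

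Rps21, another small-subunit protein (ENSMUSG00000039001, chromosome 2, 180257377 to 180258445, plus strand), had 4078, 5206 and 4889 normalized counts in PFC high performers, against 2744, 2946 and 2662 in low performers. The log2 difference was 0.76 (SE 0.11, 95% interval 0.50 to 1.01, limma adjusted p = 0.0185), again with no overlap. The fits that left out 1 library gave 1.01 to 1.29 for Rps20 and 0.68 to 0.86 for Rps21, with limma adjusted p of 0.0210 to 0.0911 and 0.0244 to 0.0920. Both passed only without high replicate 1 and without low replicate 2, and Rpl39 passed in these and without low replicate 1.

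Other members that rose in PFC did so by less. Rps27a, made as a fusion with ubiquitin, was higher by 0.66 on the log2 scale, the large-subunit proteins Rpl9, Rpl38 and Rpl24 by 0.63, 0.61 and 0.50, and Rpl15 by 0.41. The small-subunit gene Rps19, whose human counterpart is mutated in Diamond-Blackfan anaemia, was higher by 0.48, and Rpl6 by 0.37. Rpl38 is known from the mouse mutant tail-short, in which its loss alters the translation of Hox mRNAs.

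Rps26 moved the other way in PFC. Its protein sits where the mRNA leaves the small subunit (ENSMUSG00000025362, chromosome 10, 128624534 to 128626747, minus strand). High performers had 1497, 3117 and 1720 normalized counts and low performers 4621, 4671 and 4391, a log2 difference of -1.19 (SE 0.25, 95% interval -1.79 to -0.59, limma adjusted p = 0.0448), which passed in 1 of 6 fits that left out a library, that without high replicate 2. The pseudogene Rps12l1 (chromosome 7, 56014016 to 56014414) was listed at 0 in all 3 high performers and at 36.8, 81.4 and 150 in the low performers. Rps10, at 4671, 5382 and 5513 in high performers against 6580, 6759 and 6670 in low performers, did not overlap either but missed the threshold (-0.37, limma adjusted p = 0.0545).

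Beside these PFC differences, the share of counts on mitochondrially encoded genes was 5.43% ± 0.172 in high performers, against 8.47% ± 0.279 in low performers (SD over 3 libraries). Of 5 microglial markers 2 were lower in high performers, and the list summed to between 9567 and 11582 in high and between 12045 and 14832 in low performers, with no marker at 0. Astrocyte markers, none of which passed, summed to between 38449 and 48384 in high and between 49244 and 54581 in low performers, without overlap. Of 5 markers each, 1 endothelial, 1 cortical and 1 thalamic marker were also lower. Of 5 choroid plexus markers none passed, and their sum ran from 1771 to 146437 in high and from 4758 to 124447 in low performers. In a fit to the 14 libraries without the 4 rich in choroid plexus genes, the members' median log2 difference in PFC was 0.26. The same fit to all 18 gave 0.21, and the median over all genes was -0.01 in both. That smaller fit holds 1 PFC low performer, assumed to vary like the other groups, so its calls are not counted here. The part of mitochondrial share and of these cell types in the result was not tested.

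**Figure D2:**
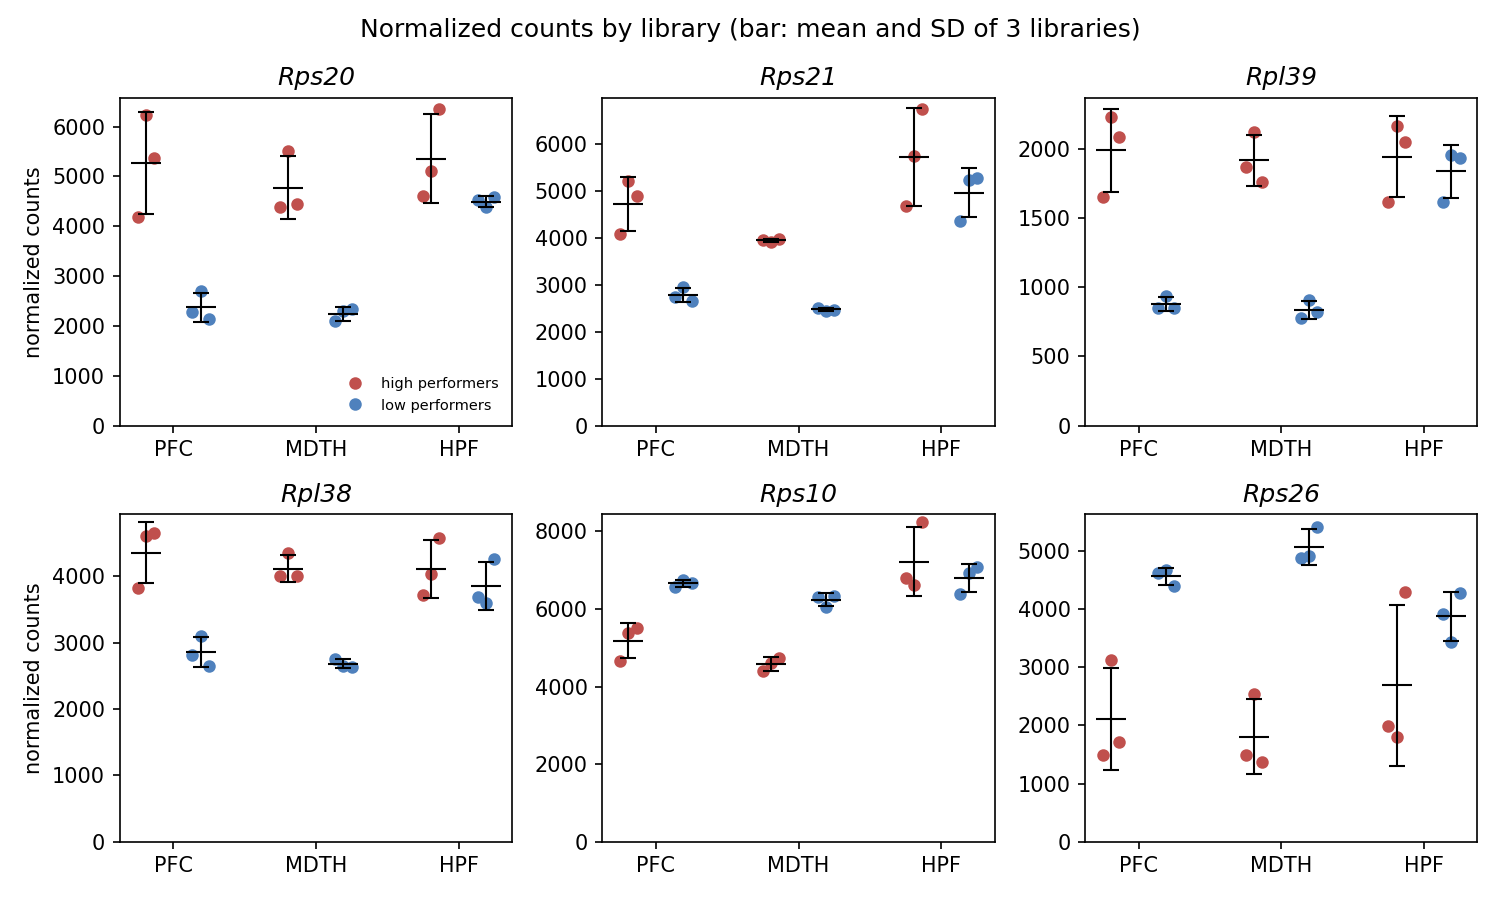
Normalized counts (linear axis from 0) of 6 members by tissue, in high performers (red) and low performers (blue). Points are libraries and bars the mean and SD of 3 libraries. Rpl39 lies at 781 to 935 in the PFC and MDTH low performers and at 1614 to 2231 in all other libraries, HPF low performers included, while Rps10 and Rps26 lie lower in the PFC and MDTH high performers than in the low performers.

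In MDTH more members passed, and they went in both directions. Of the 83 members, 22 passed as higher and 11, Rps12l1 included, as lower (26.5% and 13.3%), where 12.5% of all 17861 genes tested passed as higher and 12.5% as lower. The share that was lower is thus near that of all genes. The median log2 difference was 0.18 over the members and 0.00 over all genes, and the members' median was 0.11 once values were corrected for annotated transcript length. Groups that did not overlap made up 35 members higher and 19 lower, Rps12l1 included, where 22.2% and 22% of all genes did so. The number higher was 13 without high replicate 2 and 14 without low replicate 2. The number lower was 5 without high replicate 3, 7 without low replicate 1, 5 without low replicate 2 and 4 without low replicate 3. Calls over all genes fell as well, from 2233 higher to 1118 without high replicate 2 and 1167 without low replicate 2. The genes that passed as lower fell from 2237 to 1510, 1803, 1210 and 972 in the fits named for the lower members.

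Rpl39, Rps21 and Rps20 again had the smallest p among the members that were higher. Rpl39 had 1872, 2122 and 1759 normalized counts in MDTH high performers and 781, 910 and 819 in low performers (log2 difference 1.19, SE 0.11, limma adjusted p = 0.00278). Rps20 had 4379, 5511 and 4444 in high performers and 2090, 2300 and 2337 in low performers (1.08, SE 0.11, limma adjusted p = 0.00283). Neither gene's groups overlapped.

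Rps21 was the most even of the 3. Its MDTH values were 3951, 3913 and 3977 in high performers, against 2515, 2451 and 2467 in low performers (log2 difference 0.67, SE 0.07, 95% interval 0.51 to 0.83, limma adjusted p = 0.00278). Rpl38 had 3998, 4343 and 4002 in high performers, against 2756, 2647 and 2635 in low performers (0.62, limma adjusted p = 0.00396). Neither gene's groups overlapped, and both passed in all 6 fits that left out a library.

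Of the other members that rose in MDTH, Rpl34 was higher by 0.60 on the log2 scale, Rpl9 by 0.51, Rps27a by 0.50, Rps29 by 0.40, Rpl15 by 0.38 and Rpl31 by 0.36. The p53-responsive paralog Rps27l, at 342, 385 and 393 normalized counts in high performers and 224, 214 and 224 in low performers, was higher by 0.75 (limma adjusted p = 0.0132), while its parent Rps27 did not pass. Also higher were Rps19, Rps23, Rps7, Rpl10, Rps4x, Rpl24, Rps3, Rpl7, Rps25 and Rpl27, by 0.29 to 0.43.

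The members that fell in MDTH came from both subunits. Rps26 had 1499, 2543 and 1378 normalized counts in high performers, against 4874, 4902 and 5416 in low performers (log2 difference -1.54, SE 0.22, limma adjusted p = 0.00563). Rps10, a small-subunit protein at the mRNA entry side (ENSMUSG00000052146, chromosome 17, 27630418 to 27636669, minus strand), had 4399, 4621 and 4751 in high performers, against 6320, 6043 and 6349 in low performers (-0.44, SE 0.07, limma adjusted p = 0.00700). Rpsa, which doubles as a laminin-binding protein, had 12783, 11969 and 12731 in high performers, against 16274, 18148 and 16290 in low performers (-0.43, SE 0.08, limma adjusted p = 0.00961). None of these 3 overlapped between the groups.

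Others that were lower in MDTH were the stalk proteins Rplp1 (-0.44) and Rplp0 (-0.31), the large-subunit proteins Rpl27a (-0.41), Rpl5 (-0.38) and Rpl35 (-0.38), and Rps6 (-0.30), the phosphorylated target of S6 kinase. Once near-identical copies, described below, were summed with each gene, the log2 difference was -0.01 for Rpl5 and 0.03 for Rplp0 and neither passed. The pseudogene Rps12l1 was listed at 0 in the 3 high performers and at 43.6, 16.96 and 72.6 in the low performers. Of the 6 fits that left out a library, Rpl5 passed in 1, Rplp1 and Rpl27a in 2, Rpl35 in 3 and Rplp0 in 4. Beside the MDTH differences, 3 of 5 thalamic markers passed as higher and 1 as lower, the list summing to between 189537 and 220877 in high and between 100545 and 140225 in low performers. Of 5 habenular markers 2 were lower, with sums of 1071 to 1632 in high and 2951 to 23738 in low performers, and none was at 0. Neuronal markers summed to between 370921 and 393165 in high and between 309796 and 367403 in low performers, without overlap, with 1 of 6 higher and 1 lower. Cortical markers, none of which passed, summed to between 16081 and 24826 in high and between 7783 and 14981 in low performers, without overlap. Oligodendrocyte markers summed to between 239232 and 267360 in high and between 268355 and 310478 in low performers, also without overlap. Lower in high performers were also 2 of 5 astrocyte markers, 2 of 4 hippocampal markers tested, 1 oligodendrocyte marker and 1 choroid plexus marker. Higher were 1 of 5 microglial and 1 of 5 red blood cell markers. The mitochondrial share was 5.53% to 6.40% in high and 6.52% to 8.52% in low performers, without overlap. The part of these in the MDTH result was not tested.

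**Figure D3:**
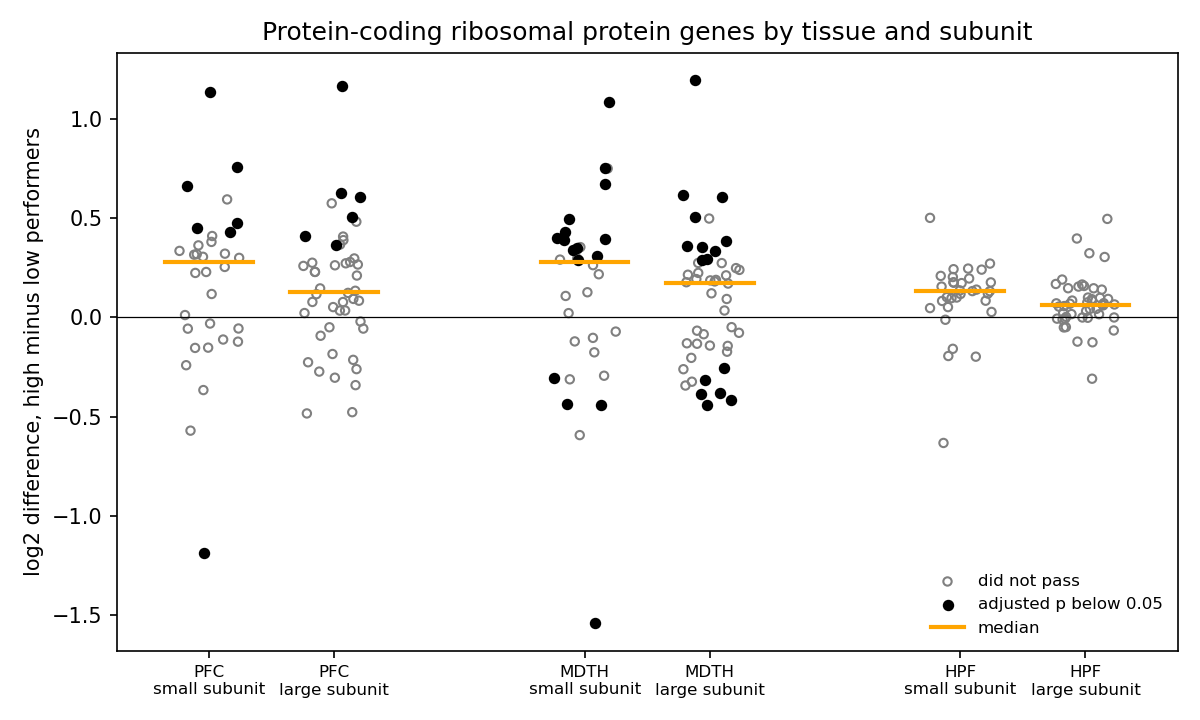
Log2 difference between high and low performers for the 78 protein-coding members, by tissue and ribosomal subunit. Filled points passed at an adjusted p under 0.05 (limma, 3 libraries a group) and orange lines are medians; PFC shows 12 filled points above 0 and 1 below, MDTH 22 above and 10 below, and HPF none.

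Both subunits held members on either side in MDTH, with 12 higher and 5 lower, Rps12l1 included, among 36 small-subunit symbols and 10 higher and 6 lower among 47 large-subunit symbols. In PFC, 6 small-subunit and 6 large-subunit members were higher. The median differences of the small and large subunits were 0.24 and 0.13 in PFC, and 0.24 and 0.18 in MDTH. The difference between subunits was not tested.

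In HPF no member passed. By limma, 0 of 82 members tested had an adjusted p under 0.05, where 0.0111% of all 18082 genes passed as higher and 0.00553% as lower. At an unadjusted p under 0.05 there were 1 higher member of 82, Rpl29, and 1 lower, Rps4l. Of all genes, 5.91% were higher and 7.36% lower at that threshold. Rpl29 had 4932, 3924 and 5417 normalized counts in HPF high performers, against 3197, 3248 and 3598 in low performers (log2 difference 0.50, SE 0.13, limma adjusted p = 0.226). The next smallest p belonged to Rps3 (0.21) and Rps27 (0.24) among positive log2 differences and to Rps26 (-0.63) and Rplp0 (-0.31) among negative ones. High performers of HPF were sequenced in lanes 3, 3 and 4 and low performers in lanes 5, 5 and 4, so lane nearly follows performance, and with lane as a term the difference comes from 1 library against 1 in lane 4. The log2 difference was positive for 64 of 82 members (78.0%) and for 48.9% of all genes, with medians of 0.09 and -0.01. The members' median was 0.02 without high replicate 3 and 0.13 without high replicate 1, 0.14 without low replicate 3, and 0.16 with lane as a term.

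Rps20 had 4614, 5104 and 6360 normalized counts in HPF high performers and 4526, 4379 and 4581 in low performers. The groups did not overlap, but the log2 difference of 0.24 (SE 0.12, 95% interval -0.05 to 0.53) did not pass (limma adjusted p = 0.445). Rps21, at 4677, 5755 and 6754 in high performers and 4363, 5245 and 5285 in low performers, overlapped (0.20, 95% interval -0.15 to 0.54, limma adjusted p = 0.601). Between the lane 4 libraries alone, 1 against 1, the log2 difference was 0.47 for Rps20 and 0.35 for Rps21. Without single libraries the Rps20 value ran from 0.11 to 0.34 and that of Rps21 from 0.07 to 0.33. Groups that did not overlap, higher in high performers, made up 5 of the 82 members (6.10%) and 8.47% of all genes, and 0 of 82 were lower without overlap, against 11.6%. Beside these values, hippocampal markers summed to between 35012 and 50305 in high and between 19859 and 20270 in low performers of HPF, and neuronal markers to between 202542 and 254530 in high and between 311603 and 359493 in low performers. None of the 5 hippocampal and 6 neuronal markers passed, and none was at 0. Cortical, habenular and choroid plexus markers, none of which passed, did not overlap either. Cortical markers summed to between 62161 and 76397 in high and between 92392 and 112420 in low performers. Habenular markers summed to between 667 and 1833 in high and between 2385 and 4053 in low performers. Choroid plexus markers summed to between 7786 and 161725 in high and between 4194 and 6144 in low performers. The mitochondrial share was 6.51% to 8.63% in high and 4.66% to 6.25% in low performers of HPF, the opposite order to PFC and MDTH, and endothelial markers, none of which passed, summed to between 6254 and 10856 in high and between 5491 and 5830 in low performers. The part of these was not tested.

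Interaction terms of the 18-library limma fit tested whether high and low performers differed by unequal amounts in a pair of tissues. Between HPF and PFC, 12 of 83 members passed, Rps12l1 included, 10 with a lower log2 difference in HPF and 2 (Rps10 and Rps12l1) with a higher one (12.0% and 2.41%, against 5.77% and 3.37% of 18254 genes). The largest among protein-coding members was Rpl39, whose HPF difference was lower than its PFC difference by 1.09 on the log2 scale (SE 0.19, limma adjusted p = 0.00347), followed by Rps20 at -0.90 (adjusted p = 0.0142). Rpl24 (-0.45), Rpl6 (-0.41) and Rpl15 (-0.37) also passed. A fit without the 4 libraries rich in choroid plexus genes keeps 1 PFC low performer, so its calls are not counted here. In it the members' median, HPF minus PFC, was -0.19, against -0.11 with all 18 libraries. The medians over all genes were 0.02 and 0.01. The count of members was 6 without PFC high replicate 2, 5 without PFC high replicate 3, 4 without PFC low replicate 3, 7 without HPF high replicate 1, 6 without HPF low replicate 1 and 6 without HPF low replicate 3. Over all genes 615 passed as higher and 1054 as lower with all 18 libraries. In the fits just named these were 332 to 494 and 577 to 993.

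Between MDTH and HPF 9 members passed, Rps12l1 included, 4 with a higher log2 difference in MDTH and 5 with a lower one (4.82% and 6.02%, against 10.5% and 8.52% of all genes). They included Rpl39 (1.12, limma adjusted p = 0.00107), Rps20 (0.84, adjusted p = 0.00948), Rpl38 (0.52), Rps10 (-0.53) and Rpsa (-0.59). With the name number as a block, 20 passed (24.1%), Rps21 among them, where 27.4% of all genes did. Between MDTH and PFC none of 83 passed by limma, where 0.871% and 2.54% of all genes did, and Rpl27a and Rpsa had the smallest p.

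The Rpl39 values show the pattern most plainly. Among high performers, the libraries numbered 44 had 1655 normalized counts in PFC, 1872 in MDTH and 2168 in HPF, whereas among low performers those numbered 163 had 910 in MDTH and 1618 in HPF. The HPF low performers, at 1618, 1959 and 1933, thus lay within the range of the high performers of all 3 tissues.

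Between tissues, ribosomal protein mRNAs were higher in HPF than in PFC or MDTH. Averaged over the performance groups, 64 members were lower in MDTH than in HPF and 1 was higher (77.1% and 1.20%, against 29.0% and 29.1% of all 18254 genes), with a median log2 difference of -0.43, against -0.02 for all genes. HPF exceeded PFC for 52 members and fell below it for 1 (62.7% and 1.20%, against 21.8% and 23.7%), with a median of 0.35, or 0.25 after the correction for transcript length. Tissues did not overlap for 43 members lower in MDTH than in HPF (15.3% of all genes) and 17 higher in HPF than in PFC (9.87%). The 1 member on the other side in both was Rps12l1, whose call follows from its admission.

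Rpl36a, an X-linked large-subunit gene, was among the smallest p of both contrasts with HPF. It had 2366, 2644 and 2279 normalized counts in MDTH high performers and 2173, 2071 and 2039 in MDTH low performers, against 3702, 3415 and 4204 in HPF high performers and 3523, 3404 and 3718 in HPF low performers. The tissues did not overlap, and MDTH was lower by 0.70 on the log2 scale (limma adjusted p = 1.54e-07). Rps2, which lines the mRNA entry channel, was lower in MDTH than in HPF by 0.79 and Rps21 by 0.76. Rps28 was higher in HPF than in PFC by 0.55, Rpl36a by 0.52 and Rps27l by 0.73. Rpl7l1 and Rps6 differed between MDTH and HPF by 0.06 and 0.04 and did not pass.

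MDTH and PFC were closer to each other. Of 83 members, 13 were lower in MDTH and 1, Rps27l, was higher (15.7% and 1.20%, against 20.4% and 20.3% of all genes), with a median of -0.13. The tissues did not overlap for 3 members lower in MDTH and 0 higher, where 9.42% and 7.9% of all genes did not. Rps2 (-0.35), Rpl12 (-0.32) and Rpl29 (-0.55) had the smallest p and passed in all 18 fits that left out a library. With the name number as a block 20 were lower (24.1%), where 23.6% of all genes were. The number lower was 24 without PFC high replicate 1, 4 without PFC high replicate 2, PFC high replicate 3, PFC low replicate 2 or MDTH low replicate 2, 6 without MDTH high replicate 3 or MDTH low replicate 1, and 8 without MDTH high replicate 1 or 2. Rps27l passed in 9 of the 18 fits.

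Near-identical copies of the genes share their reads, and the use made of such reads in counting is not given in the sources used here. Of the 78 protein-coding members, 50 had at least 1 other annotated gene with a transcript at least 95% identical over at least 50% of the member's own, 300 such copies in all. In the median member the copies held 4.02% of the level summed over gene and copies, and they exceeded 10% in 31 members. The 28 members without a copy by this rule include Rps20, Rps21, Rpl39, Rpl38, Rpl15 and Rpsa. A copy shorter than 50% of a member's annotated transcript could not count. Members with long transcripts, as Rps20, Rpl15 (1922 bases) and Rps15a (5179 bases), could therefore have shorter copies that went uncounted. Of those 28 members, 6 were higher and none lower in PFC high performers by limma, and 10 were higher and 4 lower in MDTH. Thus 6 of 12 and 10 of 22 higher calls were of members without a copy by this rule. Shorter copies of them were not searched for.

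The clearest case is Rps3a1, a small-subunit gene on chromosome 3 (86137940 to 86142702, minus strand), with its processed copies Rps3a2 on chromosome 14 (88123017 to 88123808, minus strand) and Rps3a3 on chromosome 13 (108670603 to 108671397, plus strand). Over 792 coding bases, Rps3a2 differs from Rps3a1 at 4 positions (99.5% identity) and Rps3a3 at 9 (98.9%), with identical runs of up to 317 and 215 bases. Bases 579 to 668 of the coding sequence, from GENCODE M21, are shown because they hold differences of both copies; capitals mark each position at which at least 1 of the 3 differs from another.
Rps3a1: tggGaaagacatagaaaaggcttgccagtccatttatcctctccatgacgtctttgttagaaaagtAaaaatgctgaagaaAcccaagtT
Rps3a2: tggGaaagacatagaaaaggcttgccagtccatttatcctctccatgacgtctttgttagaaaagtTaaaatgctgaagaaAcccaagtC
Rps3a3: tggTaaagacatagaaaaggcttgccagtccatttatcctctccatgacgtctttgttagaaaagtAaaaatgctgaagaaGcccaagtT

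Rps3a3 was either high or nearly absent, and followed the number in the library name. In the high performers it had 3375, 3406 and 4005 normalized counts in the libraries numbered 44 (PFC, MDTH and HPF), 3609, 3175 and 3829 in those numbered 165, and 24.96, 14.5 and 26.8 in those numbered 88. Among low performers, number 163 had 1535 in MDTH and 1948 in HPF, number 130 had 62.0 in PFC and 49.6 in MDTH, and the other 5 libraries lay at 3331 in PFC, at 1982 in HPF or between 30.3 and 62.9. Libraries of 1 number thus had like levels in different tissues.

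Rps3a1 ran opposite to its copies. It had 14692, 12396 and 17196 normalized counts in the libraries numbered 88, against 6697 to 10361 in the high performers numbered 44 or 165. Rps3a2 had 806, 654 and 1469 in the libraries numbered 88, against 2288 to 3537. The 3 genes together ran only from 11765 to 18692 over all 18 libraries, a narrower range than that of Rps3a1 alone, 6697 to 17196.

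**Figure D4:**
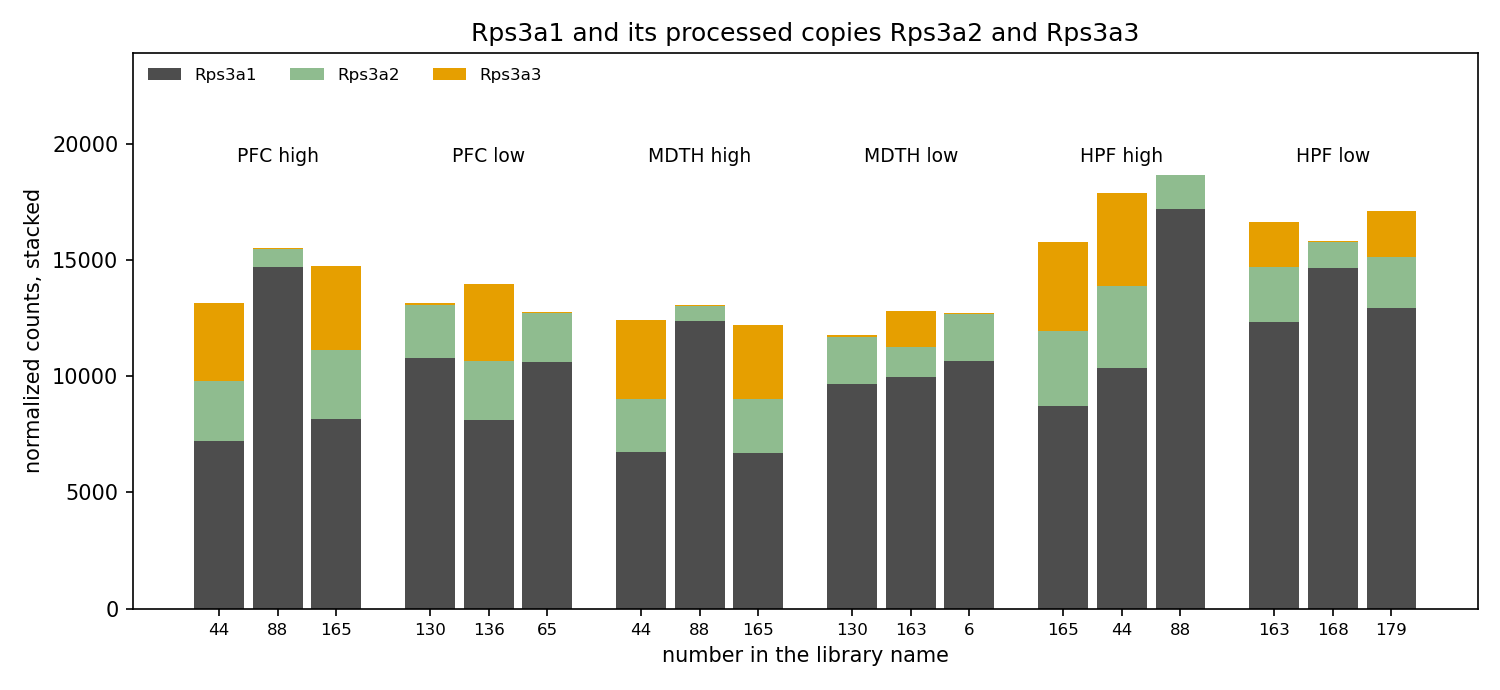
Normalized counts of Rps3a1 (grey), Rps3a2 (green) and Rps3a3 (orange), stacked, in each of the 18 libraries, labelled by the number in the library name. The orange part is between 14.5 and 26.8 in the 3 libraries numbered 88 and between 3175 and 4005 in those numbered 44 and 165, while the full bars stay between 11765 and 18692.

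Rps26 has a copy of the same sort, Rps26-ps1 on chromosome 8, which differs from it at 2 of 345 coding bases (99.4% identity). The first 90 coding bases, from GENCODE M21, show 1 of the 2, in capitals.
Rps26: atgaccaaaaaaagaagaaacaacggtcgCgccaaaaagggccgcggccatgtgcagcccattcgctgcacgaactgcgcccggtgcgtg
Rps26-ps1: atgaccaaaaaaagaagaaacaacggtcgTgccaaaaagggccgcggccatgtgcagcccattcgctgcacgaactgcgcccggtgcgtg

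In the high performers Rps26-ps1 had 482 to 666 normalized counts in the libraries numbered 88 and 1801 to 2942 in those numbered 44 or 165, against 264 to 656 in all 9 low performers. Rps26 itself was highest in number 88 among the high performers of each tissue. Summed with its copies, Rps26 remained lower in high performers, by 0.50 on the log2 scale in PFC and 0.75 in MDTH (limma adjusted p = 0.0308 and 0.00341), against 1.19 and 1.54 as deposited. Rpl5 had a copy, Gm15500, that held 49.1% of the summed level.

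**Figure D5:**
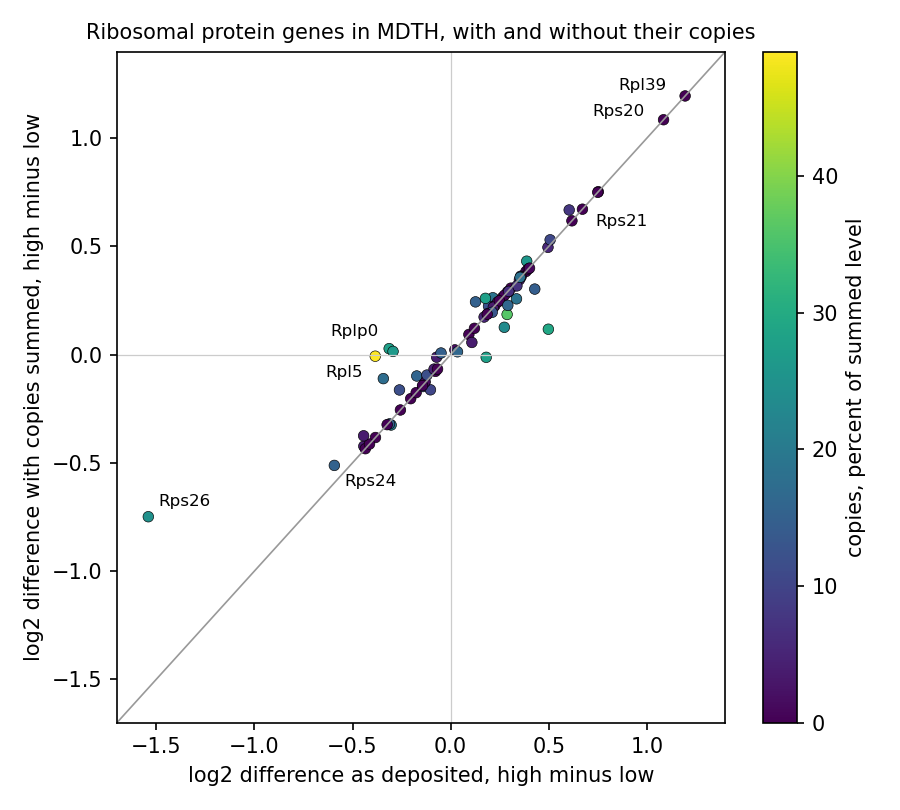
Log2 difference between high and low performers in MDTH for the 78 protein-coding members, as deposited (x axis) and after each gene was summed with its near-identical copies (y axis), coloured by the percent of the summed level held by the copies. Rpl39, Rps20 and Rps21 had no copies by the rule used and lie on the diagonal, Rps26 lies at -1.54 and -0.75, and Rpl5 and Rplp0 lie near 0 on the y axis.

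With copies summed over all members, the calls stayed close to those on the deposited genes. In PFC, 14 members were called either way, 11 of them shared, and in MDTH 33 were called as deposited and 30 with copies summed, 28 of them shared. The deposited counts include Rps12l1, which is not in the summed fit. Rpl27, Rpl5, Rplp0 and Rps19 lost their MDTH call, and Rps18 and Rps24 gained one. Rps24 was lower by 0.51 in MDTH high performers with copies summed (limma adjusted p = 0.0147), against -0.59 as deposited (adjusted p = 0.0632).

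Among the 9 high-performer libraries, 15 of 82 members (18.3%) differed by name number with tissue as a term (limma F test, adjusted p under 0.05), where 7.38% of 18112 genes did. The smallest p were those of Rps3a3 (adjusted p = 3.25e-07), Rps3a2, Rps3a1, Rps26, Rpl21 and Rps15a. With copies summed 6 of 79 members passed (7.59%, near the 6.84% of all 17995 genes: Rpl21, Rps15a, Rps4l, Rpl5, Rpl37 and Rpl12), and Rps3a1 and Rps26 did not (adjusted p = 0.421 and 0.764). Nothing was summed for Rpl21, Rps15a and Rpl37, which had no copy by the rule above, nor for the pseudogene Rps4l. Their calls are therefore no test of the copies. Rpl21 had 8523, 9509 and 11009 normalized counts in the libraries numbered 88, against 5013 to 6913 in the other 6, with no overlap.

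Start sites were searched for short pyrimidine motifs, given the tract known from these mRNAs. RefSeq promoters of GRCm38.p6 were matched for 58 of the 83 members. Within 50 bases on either side of the annotated start, CTTTC or CTTCC was found on the strand that reads like the mRNA in 40 of 58 (68.97%). It was found on the other strand in 24 (41.4%), against 29.3% and 30.7% of 27025 promoters. The 2 motifs overlap where CTTCCTTTC occurs. Windows of 20 bases before the start and 10 from it are shown for 2 members that rose in MDTH, Rpl38 (chr11:114668560-114668589, plus strand) and Rpl15 (chr14:18270977-18271006, minus strand), and 2 that fell, Rps10 (chr17:27635235-27635264, minus strand) and Rpl35 (chr2:39005122-39005151, minus strand). They show the motif in members of either direction. Capitals mark the motif.
Rpl38: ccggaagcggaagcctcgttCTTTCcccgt
Rpl15: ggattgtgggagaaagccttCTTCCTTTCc
Rps10: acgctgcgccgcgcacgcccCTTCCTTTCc
Rpl35: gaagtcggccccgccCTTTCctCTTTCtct

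Genes that work with the ribosome were examined beside the members. Of 22 translation partners (elongation and initiation factors and ribosome-associated proteins), 2 were higher and 1 lower in PFC high performers, 5 higher and 3 lower in MDTH, and 0 passed in HPF by limma, with none at an unadjusted p under 0.05. These are 9.09% and 4.55% in PFC, against 3.22% and 2.63% of all genes, and 22.7% and 13.6% in MDTH, against 12.5% for either direction. Eif3m, a subunit of the initiation factor eIF3, was higher by 0.65 in PFC and 0.69 in MDTH, and Eef1b2, the exchange factor of eEF1A, by 0.50 and 0.39. Pabpc1, the cytoplasmic polyA-binding protein, was lower in PFC by 0.58. Of ribosomal proteins that the symbol rule does not take, Fau was higher in MDTH by 0.32 (limma adjusted p = 0.0172), and Rack1, with a log2 difference of 0.03, did not pass.

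Of 36 genes of ribosome biogenesis, 35 were tested, and 1 was higher and none lower in PFC by limma, 5 higher and 1 lower in MDTH, and 0 passed in HPF, where 4 were lower at an unadjusted p under 0.05 (11.4%, against 7.36% of all genes). The PFC counts are 2.86% and 0% of the list, against 3.22% and 2.63% of all genes. The MDTH counts are 14.3% and 2.86% of the list, against 12.5% of all genes for either direction, and the first is near that share. In PFC the GTPase Gtpbp4 was higher by 0.39, and 7 of the 35 (20%, against 13.0% of all genes) were higher and none lower at an unadjusted p under 0.05. In MDTH the pseudouridine synthase Dkc1 was lower by 0.47 and the assembly factor Tsr1 higher by 0.44. The median log2 difference of this list was 0.09 in PFC, 0.09 in MDTH and -0.09 in HPF.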

How the data were processed

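The authors deposited 1 signal value per gene and library, a normalized count, for 18 libraries. Libraries were made with a stranded polyA kit, per the labels' protocols. STAR, Salmon and DESeq2 are named without version or role, per the submitters' processing notes, and the genome build and annotation are not given in the sources used here. Each of the 18 columns carries a library name that 1 sample title also holds. Whole reads could not be recovered from the deposited values, so no count model was run.

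The members, gene lists and tests were chosen with earlier results of these data known. Values were tested as log2(normalized count + 1) with limma 3.58.1 in R 4.3.3, two-sided with a mean-variance trend, on genes with a mean of at least 10 in the libraries of the fit, with Benjamini-Hochberg adjustment over all genes tested. A log2 difference on this scale understates the change of low genes. Performance was fitted within each tissue (6 libraries). Tissue differences and interactions came from 1 fit with 6 group means. The commonest value under 3 in a library was taken as the worth of 1 read to estimate its depth.

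Of the gene identifiers, 48058 (99.2%) were found in GENCODE M21. A level per kilobase used the longest principal transcript of a gene. Copies were found with blastn 2.17.0, and tables and figures were made with Python 3.11.15, pandas 2.3.3 and matplotlib 3.10.9. The fits were tested on simulated data. Genes named are Rps20 and Rps21, up to 10 members per direction with the smallest p among those that passed (the 3 smallest where fewer than 3 passed), the 6 smallest p of each interaction and of the name number test, the 5 highest and lowest per kilobase, tissue-restricted paralogs, and 3 genes of each partner list; others complete a count or illustrate the copies and were chosen after their values were seen.

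Same replicate numbers in high and low performers did not mark paired libraries, with correlations of deviations from the group means of -0.13 to 0.09 over 9 pairs. Libraries with the same name number in different tissues did deviate together, with correlations of 0.35 to 0.61 over 11 pairs, and were paired on that ground in a fit with the number as a block. Some genes that the naming rule takes are not reported here.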

Additional observations from a re-analysis of the deposited data

Results flagged for a closer look

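Members whose performance difference differed between tissues by the interaction test were singled out. On the log2 scale, the difference in HPF minus that in PFC was -1.09 for Rpl39, -0.90 for Rps20, -0.56 for Rps21, -0.51 for Rpl38, -0.50 for Rpl10, -0.48 for Rps27a, -0.46 for Rpl9, -0.45 for Rpl24, -0.41 for Rpl6 and -0.37 for Rpl15. It was 0.45 for Rps10 and 6.28 for the pseudogene Rps12l1, which is listed at 0 in all HPF libraries and all high performers, was admitted only through its PFC and MDTH low performers, and has a value that depends on the pseudocount.

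The difference in MDTH minus that in HPF was 1.12 for Rpl39, 0.84 for Rps20, 0.52 for Rpl38 and 0.34 for Rpl15. It was -0.31 for Rpl11, -0.45 for Rpl35, -0.53 for Rps10, -0.59 for Rpsa and -5.28 for Rps12l1. All passed at an adjusted p under 0.05 (limma, 18 libraries), and HPF libraries differ from the others in naming and depth, which cannot be told apart from tissue.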

How the results depend on the processing

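Counts of members are given as higher and lower and include Rps12l1 wherever it passed. In PFC they were 12 and 2 in the reported fit, 0 and 1 without a mean-variance trend and 21 and 5 in 1 fit to all 18 libraries. They were 0 and 0 with the replicate number as a block and 13 and 1 with copies summed. In MDTH they were 22 and 11, 15 and 4 without the trend and 10 and 5 with the replicate block. Over all genes, the reported fit, that without the trend and that with the replicate block gave 579 and 474, 25 and 27, and 0 and 0 in PFC. In MDTH they gave 2233 and 2237, 1461 and 1625, and 1106 and 1319. Leaving out a library gave 0 to 14 and 0 to 1 in PFC, 13 to 20 and 4 to 11 in MDTH and 0 and 0 in HPF. The replicate numbers do not pair libraries, so calls lost under the block are not weaker effects. MDTH over PFC gave 0 and 7 without the filter on low values, 8 lower without the trend and 20 lower with the name number as a block; leaving out a library gave 0 to 1 and 4 to 24. HPF over PFC had 2 lower with the length correction and 0 with copies summed; leaving out a library gave 50 to 56 and 1 to 2. MDTH over HPF had 0 higher with copies summed; leaving out a library gave 1 and 60 to 67. Interactions of HPF and PFC were 7 without the filter, 7 without the trend, 3 without the libraries rich in choroid plexus genes and 4 to 11 without 1 library. Those of MDTH and HPF were 20 with the name number block and 7 to 11 without 1 library. The name number test gave 6 with copies summed and 10 to 14 without 1 library. Rplp0 in MDTH turned to 0.0274 with copies summed. The 18-library fit less the choroid-rich libraries keeps 1 PFC low performer, so its PFC calls enter only the totals that follow. Summing copies and leaving out choroid-rich libraries were chosen after seeing the data. Over all alternatives outside leaving out a single library, those included, 111 counts stayed within 1.5 times and 23 did not. Of values of single genes 510 kept direction and side of the threshold, 57 lost the call and 1 turned direction. The cause was not tested. HPF libraries were estimated to be deepest.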
